A study of Homo sapiens with 4 samples.

Results

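FOXA2 peaks on sequence outside the placed chromosomes, and in the repeat-rich stretches around 12 centromeres, made up 606 of the 14846 peaks called after GSK2879552 (4.08%, exact 95% interval 3.77 to 4.41) and 676 of the 21308 peaks called after vehicle (3.17%, 2.94 to 3.42). A peak was counted when it lay on a contig of the hg19 (GRCh37) build that is not a whole chromosome, or when its summit, the position of highest coverage, lay in a listed window around a centromere. The windows were 120.5 to 145 Mb on chromosome 1, 89 to 96.5 Mb on chromosome 2, 48.5 to 53 Mb on chromosome 4 and 57 to 63 Mb on chromosome 7. They were 43 to 47.5 Mb on chromosome 8, 39 to 71 Mb on chromosome 9, 38.5 to 43 Mb on chromosome 10 and 34 to 38.5 Mb on chromosome 12. The others were 32 to 47 Mb on chromosome 16, 24 to 28.5 Mb on chromosome 19, 25.5 to 30 Mb on chromosome 20 and 9 to 15 Mb on chromosome 21. The rule used position alone, and no measured value.

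Chromatin immunoprecipitation followed by sequencing was carried out for FOXA2 in PC3, an androgen-independent prostate cancer cell line. Cells in medium with 5% CSS received 50 µM GSK2879552, which blocks the histone demethylase LSD1 (KDM1A), for 4 hours. The control cells received vehicle, for a time that the labels do not state separately. Each group was 1 peak list covering 2 sequencing lanes that the labels call technical replicates, so every difference given is between these 2 libraries and has no replicate check. The descriptions of the samples name ATAC-seq, while their titles and the series name FOXA2 ChIP-seq.

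FOXA2 is a forkhead transcription factor that can bind its sites in compact chromatin and open it for other factors. Human centromeres are built of tandem satellite repeats, chiefly alpha satellite, and the chromatin on both sides of them is largely heterochromatin rich in other satellites and in recently duplicated segments. Reference assemblies hold only a fraction of these arrays, and sequence that could not be ordered is kept as unlocalized contigs (chromosome known) or unplaced contigs (chromosome unknown). Haplotype contigs are alternate versions of a placed region, such as the major histocompatibility complex on chromosome 6. A short read from such sequence can match several positions equally well. The sources used here do not say how reads with several matches were treated.

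Peak numbers were closer between the libraries on contigs and near centromeres than elsewhere. They were 0.896 times as many after GSK2879552 as after vehicle (95% interval 0.802 to 1.002, counting error only), against a ratio of 0.690 (0.676 to 0.705) for all other peaks, and these intervals did not overlap. The windows held 443 GSK2879552 peaks and 488 vehicle peaks. The contigs held 163 GSK2879552 peaks on 28 contigs and 188 vehicle peaks on 29 contigs, and 26 contigs had a peak in both lists. Unplaced contigs carried 77 GSK2879552 and 89 vehicle peaks, unlocalized contigs 64 GSK2879552 and 70 vehicle peaks, and haplotype contigs 22 GSK2879552 and 29 vehicle peaks.

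Among single windows, chromosome 9, the longest at 32 Mb, held the most peaks, 99 after GSK2879552 and 119 after vehicle. Per Mb this was 3.09 after GSK2879552 and 3.72 after vehicle. The highest numbers per Mb were on chromosome 10, at 13.8 after GSK2879552 and 13.6 after vehicle. Chromosome 10 had 62 GSK2879552 and 61 vehicle peaks, chromosome 16 had 48 in each list, and chromosome 2 had 45 GSK2879552 and 48 vehicle peaks. Numbers were lower after GSK2879552 in 7 windows, higher in 2 and equal in 3. Of the contigs, the unlocalized chr9_gl000199_random led with 45 GSK2879552 and 48 vehicle peaks. It was followed by the unplaced chrUn_gl000225 with 22 GSK2879552 and 29 vehicle peaks and chrUn_gl000216 with 16 GSK2879552 and 19 vehicle peaks.

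**Figure D1:**
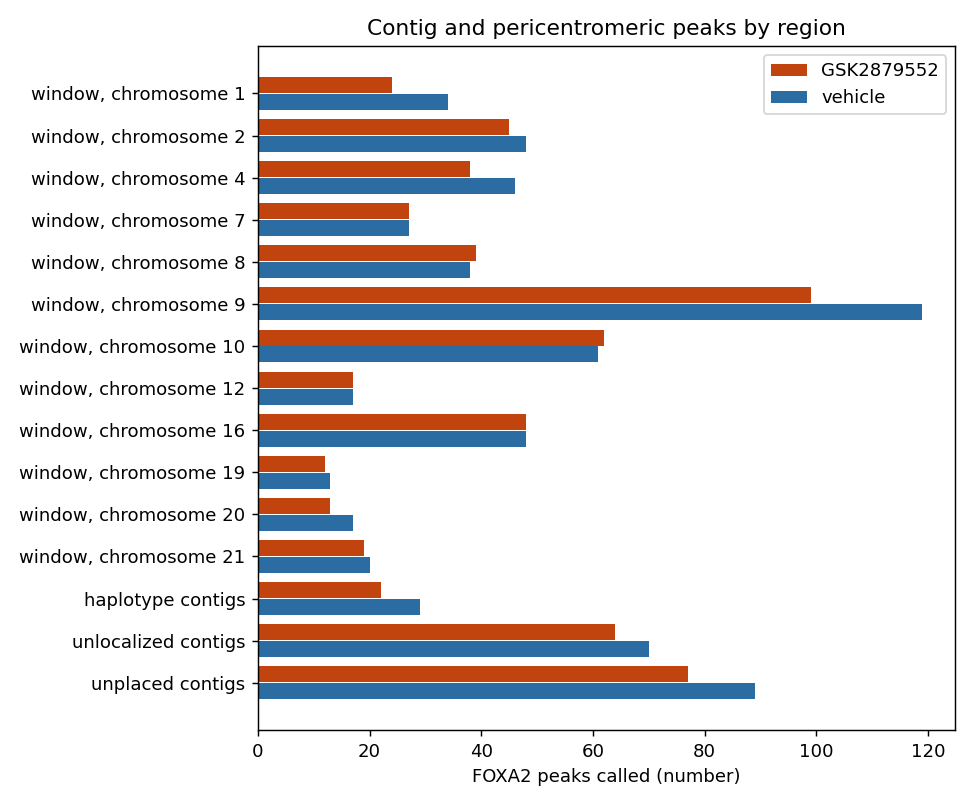
Number of FOXA2 peaks called in each window and contig class (horizontal axis) after GSK2879552 and after vehicle, 1 list per group. The chromosome 9 window, the longest at 32 Mb, holds the most in both lists, 99 after GSK2879552 and 119 after vehicle.

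Over their full length of 118 Mb, the windows held 3.75 peaks per Mb after GSK2879552, against 4.98 per Mb on the rest of the same chromosomes, and 4.14 per Mb after vehicle, against 7.24 on the rest. The ratio of these densities was 0.754 after GSK2879552 and 0.571 after vehicle, and among peaks with a −log10 q of 10 or more it was 1.04 after GSK2879552 (0.914 to 1.18) and 0.653 after vehicle. The full length includes unsequenced gaps around the centromeres, where no read can be placed. The length of these gaps was not used here, so these densities do not show whether the sequenced part of the windows was poorer or richer in peaks than the rest. Within the windows and contigs the peaks were bunched. The median distance between neighbouring summits was 5771 bp after GSK2879552 and 6205 bp after vehicle, whereas for all other peaks it was 85468 bp after GSK2879552 and 57065 bp after vehicle. A distance on a contig cannot exceed the length of the contig. In the windows alone the median distance was 6416 bp after GSK2879552 and 7863 bp after vehicle. In the chromosome 10 window, 41 GSK2879552 and 39 vehicle peaks lay within 190 kb, which held 63.9% of that window's vehicle peaks. On chromosome 16, 26 peaks of each list lay within 113 kb, and on chromosome 2, 25 GSK2879552 and 24 vehicle peaks lay within 56.4 kb. On chromosome 9 the densest 200 kb held 11 peaks of each list, 9.24% of that window's vehicle peaks. That window is 32 Mb long, against 4.5 Mb on chromosome 10. These shares therefore do not show which window was spread more evenly.

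The contig and pericentromeric peaks were tall and stood on a high local background. From the authors' deposited fold and −log10 p, 2 numbers were recovered for every peak: the fragments at its summit, and the local background, which is how many fragments the peak caller took as the level of the surrounding sequence. If counted in the same library, this level includes reads of the peak itself and of its neighbours. The background and the fold would then not be independent of the summits. The median summit had 41 fragments after GSK2879552 and 38 after vehicle, whereas all other peaks had 17 after GSK2879552 and 18 after vehicle. The local background had a median of 5.33 fragments after GSK2879552 and 4.61 after vehicle, and elsewhere 1.68 after GSK2879552 and 1.66 after vehicle. That is 4.93 times the lowest background of the library after GSK2879552 and 4.27 times after vehicle. The authors' deposited fold, the ratio of the summit to this background, was lower than elsewhere: its median was 5.07 after GSK2879552 and 5.01 after vehicle, and for all other peaks 6.67 after GSK2879552 and 7.10 after vehicle.

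A local background of 25 fragments or more, a limit set after the data were seen, was found at 142 contig and pericentromeric peaks after GSK2879552 (23.4%, against 1.16% of all peaks in that list) and at 149 after vehicle (22.0%, against 0.868% of all). They were 82.6% of the 172 such peaks after GSK2879552 (76.0 to 87.9) and 80.5% of the 185 after vehicle (74.1 to 86.0). The remaining ones lay on chromosomes 6, 11, 17, 18 and X and on mitochondrial DNA. None of these chromosomes has a listed window, so sequence around their centromeres counted among all other peaks. Of the 100 peaks with the most fragments, 80 after GSK2879552 and 72 after vehicle were contig or pericentromeric. All contig and pericentromeric peaks together carried 10.9% of summit fragments after GSK2879552 and 7.77% after vehicle.

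**Figure D2:**
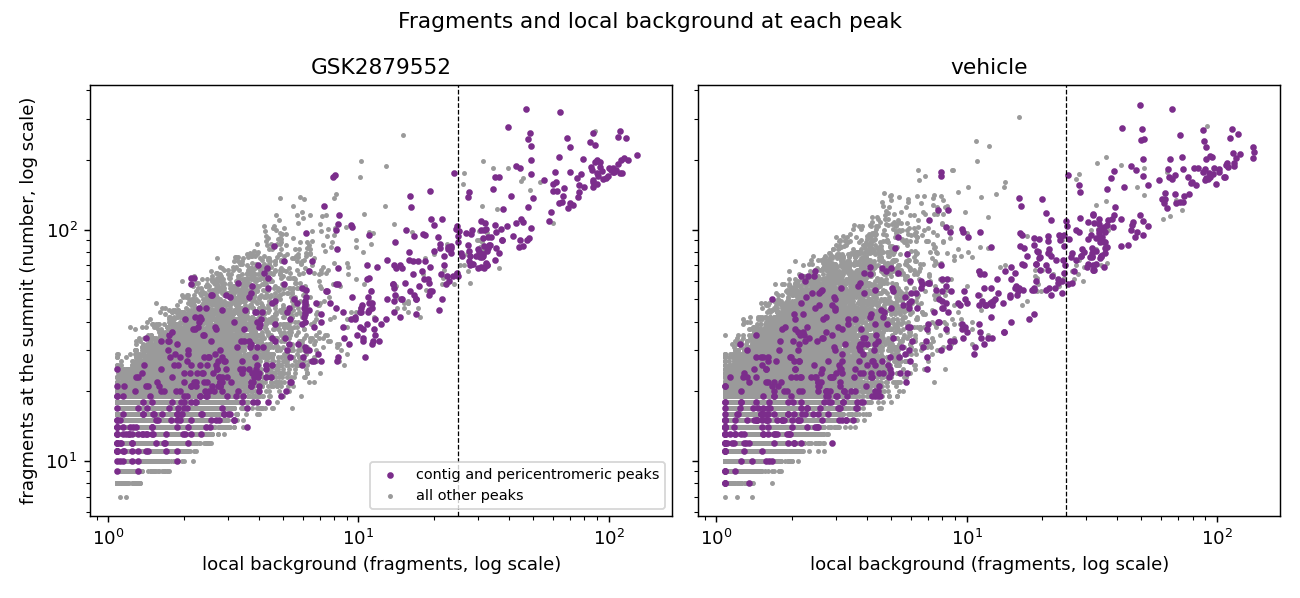
Fragments at the summit (vertical, log scale) against local background (horizontal, log scale) for each peak, GSK2879552 left and vehicle right, with contig and pericentromeric peaks over all other peaks; the dashed line marks a background of 25. At or beyond that line lie 142 contig and pericentromeric peaks after GSK2879552 and 149 after vehicle.

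The summits with the most fragments came close to the number that the fragment length allows. With at most 1 read per position and strand, a summit could reach 336 fragments after GSK2879552 and 350 after vehicle. The peak at chr1:121483987-121485488 had 332 fragments after GSK2879552 and 347 after vehicle, over backgrounds of 46.6 after GSK2879552 and 49.3 after vehicle. At chr7:61968592-61969702 there were 322 fragments after GSK2879552 and 333 after vehicle, and at chr19:27731889-27732384 there were 277 after GSK2879552 and 276 after vehicle. More than 50% of the number possible was reached at 50 contig and pericentromeric summits after GSK2879552 and 43 after vehicle, and at 8 other summits after GSK2879552 and 13 after vehicle. No summit in either list passed that number. Whether duplicate reads were removed was not stated in any source used.

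Regions differed widely in background. The unplaced contig chrUn_gl000226 had a median of 85.9 fragments after GSK2879552 and 99.1 after vehicle, and all its 10 GSK2879552 and 11 vehicle peaks lay above 25. Its summits had a median of 172 fragments after GSK2879552 and 183 after vehicle, and its median fold in the authors' deposited table was 1.87 after GSK2879552 and 1.77 after vehicle. In the dense stretch on chromosome 2 the median background was 69.9 after GSK2879552 and 70.6 after vehicle, and in that on chromosome 16 it was 67.6 after GSK2879552 and 69.6 after vehicle. The chromosome 9 window had the lowest median of the 12 windows, close to ordinary peaks: a median background of 1.95 after GSK2879552 and 1.84 after vehicle and a highest value of 8.27 after GSK2879552 and 8.63 after vehicle. The windows of chromosomes 12, 20 and 21 also had no background of 25 or more. Several contigs lay lower still, such as chr4_ctg9_hap1, with a median of 1.26 after GSK2879552 and 1.47 after vehicle, and the chromosome 6 haplotypes described further on.

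The strongest peak of each remaining region was near equal in the libraries in the windows and less so on some contigs. At chr10:42596741-42597267 there were 261 fragments after GSK2879552 and 271 after vehicle, and at chr16:46435025-46435578 there were 168 after GSK2879552 and 179 after vehicle. At chr2:92281158-92281571 there were 116 after GSK2879552 and 122 after vehicle, and at chr8:43793667-43794319 there were 95 after GSK2879552 and 98 after vehicle. These sites lay on backgrounds from 8.33 to 48.6 after GSK2879552 and from 8.40 to 50.4 after vehicle. On lower backgrounds, chr4:49659440-49659862 had 97 fragments after GSK2879552 and 110 after vehicle, and chr21:10819297-10819800 had 85 after GSK2879552 and 93 after vehicle. At chr20:29829314-29829842 there were 68 after GSK2879552 and 69 after vehicle, and at chr12:34846790-34847090 there were 55 after GSK2879552 and 56 after vehicle. On contigs the order of the libraries varied more. On chr9_gl000199_random the peak at positions 34309-34693 had 139 fragments after GSK2879552 and 137 after vehicle, and on chrUn_gl000216 the one at 169416-169807 had 51 after GSK2879552 and 68 after vehicle. On chr7_gl000195_random the 3 pairs had 44, 44 and 16 fragments after GSK2879552 and 68, 78 and 25 after vehicle.

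Peaks near the bounds of the windows were compared on both sides. Within 500 kb inside the 24 bounds there were 72 GSK2879552 peaks with a median of 27 fragments and 89 vehicle peaks with a median of 23. Within 500 kb outside them there were 44 GSK2879552 peaks with a median of 18 fragments and 67 vehicle peaks with a median of 19. A background of 25 or more was found at 6 peaks of each list inside and at none outside.

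A peak was called shared when its interval overlapped one of the other list by at least 1 bp. Of the GSK2879552 peaks on contigs and near centromeres, 515 were overlapped by a vehicle peak (85.0%, 81.9 to 87.7; 89.2% over all GSK2879552 peaks) and 91 stood in that list alone (10.8% of all GSK2879552 peaks did). Of the vehicle peaks, 512 were overlapped by a GSK2879552 peak (75.7%, 72.3 to 78.9; 62.0% over all vehicle peaks) and 164 stood alone (38.0% of all vehicle peaks did). Outside these regions the shares were 89.4% for GSK2879552 and 61.6% for vehicle. The share was thus lower than elsewhere for GSK2879552 peaks and higher than elsewhere for vehicle peaks, beyond the counting intervals. These intervals take each peak as independent, although the peaks are bunched. As nearly the same number was shared from either side, these shares and the ratio of peak numbers are not separate results.

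The shares were also compared at matched −log10 p. Each list was divided into 10 equal parts by the authors' deposited −log10 p. This did not match fragment numbers, and in every part the contig and pericentromeric summits had the higher median. In the fifth part of either list that median was 24 fragments, against 16 for all others. In the weakest part of the GSK2879552 list, 55.8% of contig and pericentromeric peaks and 69.3% of all others were overlapped by a vehicle peak, and in the fifth part 68.8% and 90.7%. In the weakest part of the vehicle list, 29.0% of contig and pericentromeric peaks and 19.3% of all others were overlapped by a GSK2879552 peak, and in the fifth part 66.2% and 53.5%. The intervals of the contig and pericentromeric share and of the other share were apart in 1 of the 10 parts of the GSK2879552 list, the fifth, and in 2 of the 10 parts of the vehicle list, the third and the sixth. They overlapped in all the other parts, so most single parts did not separate these kinds of peak beyond counting error. The direction was nevertheless steady across parts. The contig and pericentromeric share was the lower one in parts 1 to 8 of the GSK2879552 list. In part 9 of that list it was 100%, against 99.9% of all others. In the vehicle list it was the higher one in parts 1 to 9. In the strongest part of either list all peaks of both kinds were overlapped.

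**Figure D3:**
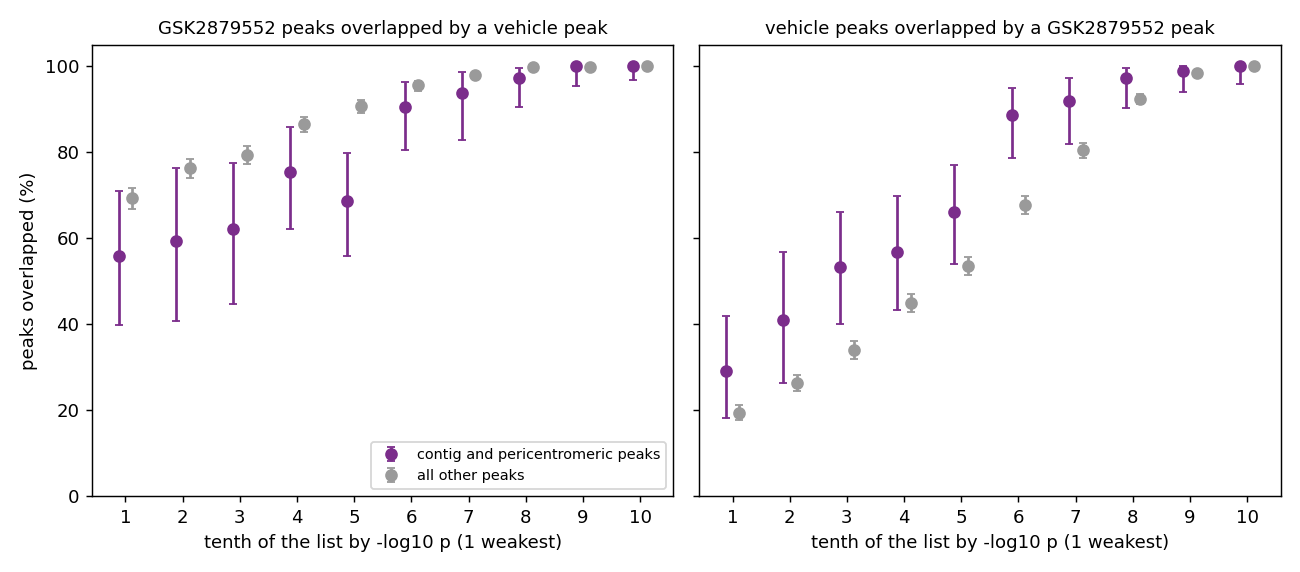
Share of peaks overlapped by a peak of the other list (vertical, %) in each of 10 parts of a list by −log10 p, from 1 (weakest) to 10 (strongest), for GSK2879552 peaks (left) and vehicle peaks (right); points are shares and bars exact 95% intervals. In part 5, 68.8% of contig and pericentromeric GSK2879552 peaks were overlapped against 90.7% of all others, and 66.2% of such vehicle peaks against 53.5%.

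Peaks standing in a single list included tall ones with a summit of the other library close by. The strongest by −log10 p in the GSK2879552 list alone was chr19:27740091-27740259, with 86 fragments over a background of 27.5, followed by chr19:27906136-27906429 with 21 fragments. In the vehicle list alone it was chrUn_gl000220:110598-110915, with 111 fragments over a background of 33.7 and a GSK2879552 summit 464 bp away. A vehicle peak of 23 fragments at chr9:68141634-68141923 was isolated, since its nearest GSK2879552 summit was 350335 bp away.

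At shared peaks the fragment numbers differed less between the libraries than elsewhere. They were compared over mutual best partners, referred to as pairs, as a log2 ratio of GSK2879552 over vehicle with each library scaled by its lowest background. The 509 contig and pericentromeric pairs had a median log2 ratio of -0.07 (interquartile range -0.24 to 0.03), against -0.34 (-0.59 to -0.09) for the 12691 other pairs. Their median was 45 fragments after GSK2879552 and 51 after vehicle, and for other pairs 18 after GSK2879552 and 24 after vehicle. GSK2879552 had fewer fragments at 331 of the 509 pairs, the same number at 31 and more at 147, and 78.0% of all pairs had fewer. A ratio at least 1.5-fold lower was found at 39 pairs (7.66%; 24.9% of all pairs) and at least 1.5-fold higher at 2 (0.826% of all pairs). The local background had a median log2 ratio of -0.09 at these pairs and -0.06 at all others.

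Summits of a pair also lay nearer to each other. Their median distance was 10 bp (interquartile range 3 to 33), against 24 bp elsewhere, and 267 of the 509 lay within 10 bp, a distance chosen after the data were seen (52.5%; 26.6% of all pairs). The contrast depended on local background, in bands chosen after the data were seen. Under 1.5 fragments the median distance was 27 bp for contig and pericentromeric pairs and 26 bp for others. From 3 to 25 fragments it was 8 bp and 18 bp, and at 25 or more it was 6 bp for both. Pairs within 10 bp had a median log2 ratio of -0.04 and those farther apart -0.13, whereas among all other pairs these were -0.34 and -0.32.

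The ratio was then set against background, in bands chosen after the data were seen. Under 1.5 fragments of background the median log2 ratio was -0.21 for 47 contig and pericentromeric pairs and -0.28 for 4271 others. From 3 to 25 fragments it was -0.05 for 213 contig and pericentromeric pairs (interquartile range -0.20 to 0.05), against -0.36 for 1684 others (-0.55 to -0.16). At 25 or more it was -0.05 for 132 contig and pericentromeric pairs and -0.04 for 28 others. These others lay on chromosomes without a listed window or on mitochondrial DNA, so they may include sequence around centromeres. At this background, 47 of the 142 contig and pericentromeric peaks after GSK2879552 and 42 of the 149 after vehicle exceeded 50% of the fragments possible, a number whose own log2 ratio is -0.06. The pairs in which neither summit exceeded it, a choice made after the data were seen, had a median log2 ratio of -0.05 for 85 contig and pericentromeric pairs and -0.02 for 21 others. Medians thus differed less at the lowest and the highest background than between them. Fragment numbers were matched in the band from 10 to 25, with typical summits of 64.6 fragments (median of the geometric mean of both libraries) in 86 contig and pericentromeric pairs and 66.7 in 32 others, and there the log2 ratios were -0.07 and -0.23.

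**Figure D4:**
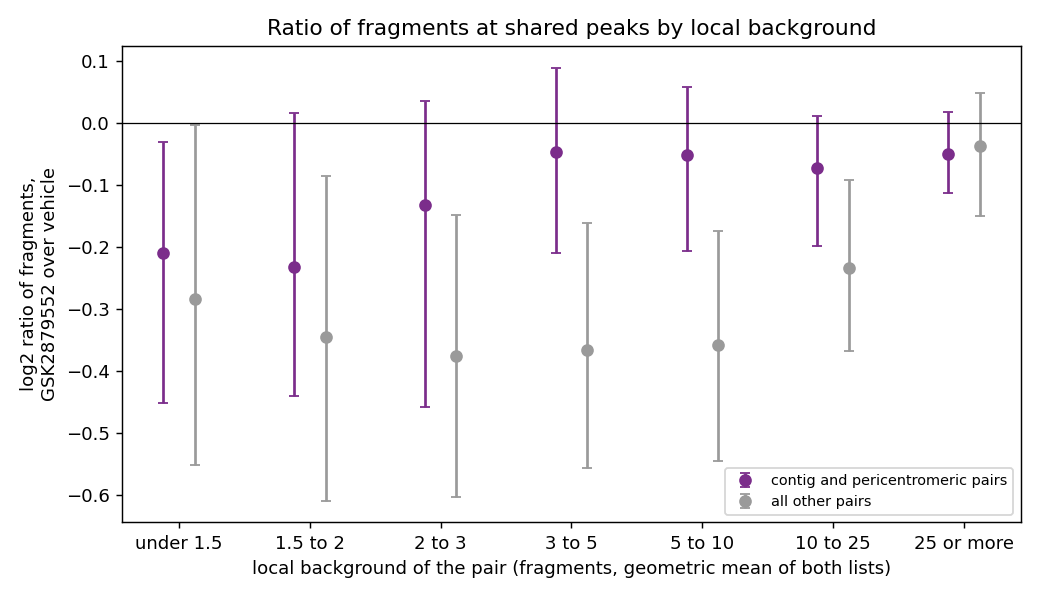
Median log2 ratio of summit fragments, GSK2879552 over vehicle (vertical), by local background of the pair (horizontal, fragments), for contig and pericentromeric pairs and all other pairs; bars are interquartile ranges. At a background of 5 to 10 the medians were -0.05 and -0.36, and at 25 or more -0.05 and -0.04.

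Regions differed in this ratio. Of the 20 windows and contigs with 5 or more pairs, 2 had a median above 0, chrUn_gl000226 and the chromosome 8 window, both at 0.02. The windows of chromosomes 2, 7, 10 and 16 lay between -0.06 and -0.03. The chromosome 9 window had a median of -0.19 over 88 pairs, 63 of them with fewer fragments after GSK2879552, and the chromosome 20 window -0.24. Below the median of other peaks lay chr4_ctg9_hap1, an alternate version of part of chromosome 4, at -0.39, and chrUn_gl000220 at -0.76.

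The contig chrUn_gl000220 is known to carry ribosomal DNA, the template of ribosomal RNA, although no file used here annotates it. It had 8 peaks after GSK2879552 and 10 after vehicle, and all of its 5 pairs had fewer fragments after GSK2879552. At chrUn_gl000220:154595-154897 there were 50 fragments after GSK2879552 and 106 after vehicle (log2 ratio -1.09), and at chrUn_gl000220:160924-161644 there were 32 after GSK2879552 and 71 after vehicle (-1.15). At chrUn_gl000220:103196-103765 there were 50 after GSK2879552 and 76 after vehicle, and at chrUn_gl000220:31713-32081 there were 65 after GSK2879552 and 83 after vehicle. The pair at chrUn_gl000220:4473-4742 had 23 after GSK2879552 and 39 after vehicle. The background, which may include reads of the summits themselves, moved with them on this contig. It was 21.6 after GSK2879552 and 33.8 after vehicle at the first of these pairs, with a median log2 ratio of -0.63 over the 5, and its part in the lower summits was not tested.

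The 2 lowest ratios of single pairs were at small summits in the chromosome 9 window. At chr9:41848243-41848495 there were 15 fragments after GSK2879552 and 37 after vehicle (log2 ratio -1.31), and at chr9:44533454-44533709 there were 15 after GSK2879552 and 35 after vehicle (-1.23). The highest ratios were also at small summits. At chr20:29804396-29804570 there were 16 fragments after GSK2879552 and 10 after vehicle (0.68), and at chr8:43760522-43760701 there were 25 after GSK2879552 and 16 after vehicle (0.64).

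The chromosome 9 window, which surrounds a large block of heterochromatin and is known for recent segmental duplications, repeated its own peak spacing. Runs of at least 3 consecutive distances between summits, each from 1 kb to 1 Mb, were sought that recurred elsewhere on the same chromosome in the same or the opposite order, each distance matching within 100 bp or 2%, whichever was larger. This search was made after the data were seen. Such runs held 23 of the window's 99 GSK2879552 peaks (23.2%) and 18 of its 119 vehicle peaks (15.1%). On the rest of chromosome 9 they held 0 of 412 GSK2879552 and 0 of 610 vehicle peaks, and among all other peaks 0.337% for GSK2879552 and 0.499% for vehicle. No other window and no contig had one, but many contigs held too few peaks for a run to recur. A distance under 1 kb also ended a run. Such distances made up 24.4% of those on contigs after GSK2879552 and 16.4% after vehicle. In all windows together they were 16.2% after GSK2879552 and 16.6% after vehicle. The search could therefore not show that these regions lack recurring spacing. With 2 distances in place of 3, runs held 51 vehicle peaks of the window and 104 of the 610 on the rest of the chromosome.

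The longest run had 6 sites, A to F, over 95.7 kb and was found in 3 copies in the vehicle list. Copy 1 lay at chr9:46876667-46972674. Copy 2 lay in the opposite order at chr9:41826090-41922032, and copy 3, with sites C to F, lay at chr9:65996626-66033325. Sites C and D were 11474, 11421 and 11437 bp apart in copies 1, 2 and 3, and sites E and F 22173, 22121 and 22165 bp apart. No distance differed by more than 53 bp between copies.

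Site C was the tallest in each copy and in both libraries. The sites were chosen from the vehicle list, which by itself favours sites that were high there, so the values are a description. In the GSK2879552 list alone, the same search gave a run of 5 sites over the stretches of copies 1 and 2. Site C had 37, 46 and 42 fragments after GSK2879552 in copies 1 to 3, and 54, 60 and 66 after vehicle. Site E had 20, 15 and 29 after GSK2879552, and 27, 37 and 47 after vehicle. Site F had 21, 18 and 23 after GSK2879552, and 28, 24 and 28 after vehicle. Sites A and B were found in copies 1 and 2. Site A had 24 and 22 after GSK2879552 and 30 and 38 after vehicle, and site B had 23 and 22 after GSK2879552 and 38 and 35 after vehicle. Site D had 15, 19 and 22 fragments after vehicle and was overlapped by no GSK2879552 peak in any copy. Of the 16 vehicle peaks, 13 had a GSK2879552 partner, and the partner had fewer fragments at all 13, where 63 of the 88 pairs of the window and 78.0% of all pairs had fewer. The other 3 were the copies of site D, where 31 of the window's 119 vehicle peaks and 38.0% of all vehicle peaks stood alone. The copies were matched by spacing, and their sequence was not analysed. If they share sequence, reads may have been divided among them. The 13 partners stand for 5 sites of the run and were not taken as independent sites.

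**Figure D5:**
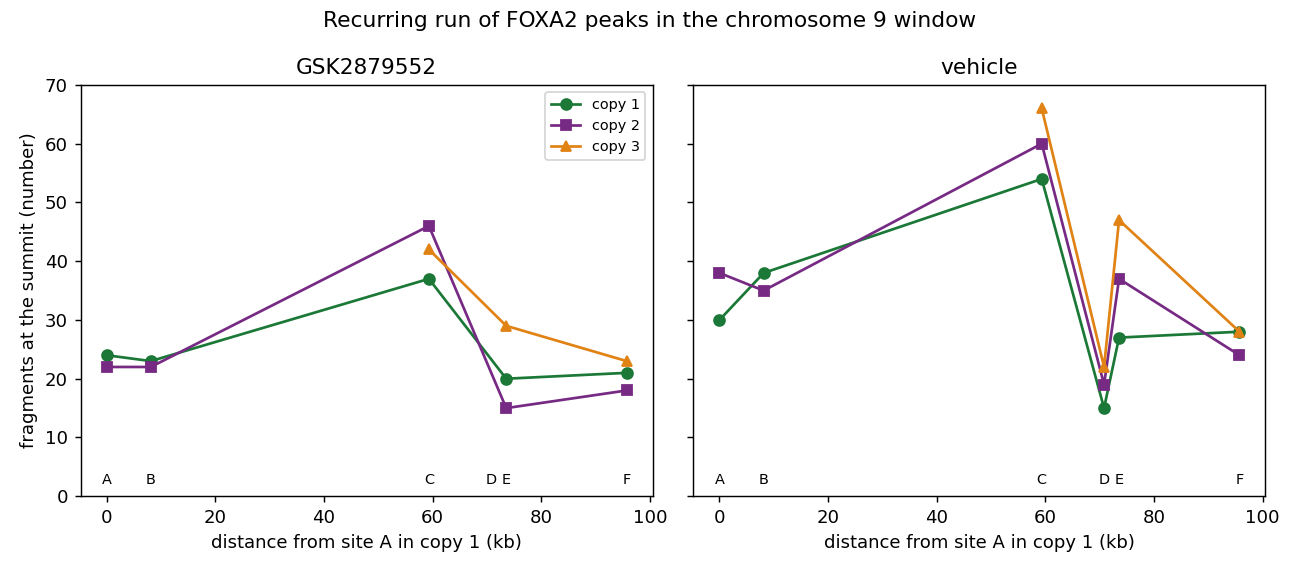
Fragments at the summit (vertical) of each site of the recurring run in the chromosome 9 window against distance from site A of copy 1 (horizontal, kb), GSK2879552 left and vehicle right, 1 line per copy. Site C is the tallest in each copy, at 37 to 46 fragments after GSK2879552 and 54 to 66 after vehicle.

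The vehicle peaks of this window with 100 fragments or more, a limit set after the data were seen, were near equal in the libraries. At chr9:69710816-69711370 there were 172 fragments after GSK2879552 and 178 after vehicle, and at chr9:66970970-66971647 there were 169 after GSK2879552 and 170 after vehicle. At chr9:67320398-67321027 there were 126 after GSK2879552 and 121 after vehicle. Each of the 3 had a smaller neighbour 2401 to 2509 bp away, so they resembled each other in layout. In the same order the neighbours had 68, 58 and 54 fragments after GSK2879552 and 57, 61 and 61 after vehicle. The vehicle background was 7.89, 7.88 and 7.67 at the 3 sites. Their vehicle summits were at 50.9%, 48.6% and 34.6% of the fragments possible with at most 1 read per position and strand. Whether this limit drew the libraries together was not tested.

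Haplotype contigs had small peaks on low background. The chromosome 6 haplotypes carried 11 GSK2879552 and 13 vehicle peaks on 7 contigs, all at the lowest background of their library. Of these, 54.5% of GSK2879552 peaks (89.2% over all) and 46.2% of vehicle peaks (62.0% over all) were overlapped by the other list. On the 5 contigs with a pair, the first pair along the contig had 11 to 21 fragments in both libraries, with sums of 79 after GSK2879552 and 82 after vehicle. These sums leave out the second pair on chr6_ssto_hap7, with 10 fragments after GSK2879552 and 16 after vehicle. Both pairs of that contig were at least 1.5-fold lower after GSK2879552. A distance near 25 kb between summits recurred on several of them, at 25141 bp on chr6_ssto_hap7 after GSK2879552 and at 25396, 25519 and 25327 bp on chr6_dbb_hap3, chr6_qbl_hap6 and chr6_ssto_hap7 after vehicle. As these contigs are alternate versions of the same region, the distances and the sums may count the same sites more than once. On chr17_ctg5_hap1, an alternate version of part of chromosome 17, the strongest vehicle peak (positions 154236-154628) had 32 fragments after GSK2879552 and 53 after vehicle. A choice by vehicle strength favours sites that were high there. Over the 5 pairs of this contig the median log2 ratio was -0.10, with fewer fragments after GSK2879552 at 3 and more at 2. A haplotype contig and its placed counterpart share sequence, so their reads may have been divided between them.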

How the data were processed

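The deposited data were 2 peak lists in narrowPeak format, 1 per group, each covering both lanes. Alignment and peak calling used BWA (0.7.2), SAMtools (0.1.18) and MACS2 (2.1.2) on hg19 (GRCh37), per the submitters' processing notes. Options, duplicate handling and any control library were not given in the sources used. The deposited fold is a ratio of fragments to local background, each with 1 added. The authors' peak caller also gave the deposited −log10 values of p and of q. The deposited score was not used.

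Fragments and background at each summit were solved from fold and −log10 p (a Poisson upper tail). A whole number under 1500 matched within 0.001 for 100% of peaks, with largest errors of 0.000135 (GSK2879552) and 0.000123 (vehicle), and a second number also matched at 7 GSK2879552 and 3 vehicle peaks. Fragment lengths were 168 bp (GSK2879552) and 175 bp (vehicle), the shortest intervals. The lowest background was 1.08 fragments in both libraries. If no control library was used, this equals a depth of 6.44 reads per kb (GSK2879552) and 6.17 (vehicle). Of the backgrounds above the lowest, 100% lay on steps of 0.0168 fragments (GSK2879552) and 0.0175 (vehicle). Whole unscaled reads counted over 10 kb would give such steps. Pair ratios were scaled by these lowest backgrounds. Intervals are exact (Clopper-Pearson, 95%), those of a ratio of peak numbers taking the lists as independent, and cover counting error only. They take each peak as independent and may be too narrow where peaks are bunched. With 1 list per group no test was made. On simulated data, fragments were recovered at 100% of 583 GSK2879552 and 572 vehicle summits. A planted run, modelled on the observed run and copied exactly, was found at 100% of 12 summits, which checks only that the search works. Of 200 random summits, 0% were placed in a run. Their distances were drawn evenly and not bunched as in the windows, so this gives no rate of false runs in these data. Python 3.11.15, numpy 2.4.6, pandas 2.3.3 and scipy 1.17.1 were used.

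The windows, contigs and lists were chosen with earlier results of these data known. Named peaks are the strongest by vehicle −log10 p, the strongest of each list alone, those of highest background, those of lowest and highest ratio, and the strongest of each region. The recurring run, the chromosome 6 haplotypes, chr7_gl000195_random and the ribosomal DNA contig were added after their values were seen. Sequence features were not analysed here.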

Additional observations from a re-analysis of the deposited data

How the results depend on the processing

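Of 52 recomputed values under other settings, 33 stayed within the interval of the value given above, 1 count with no interval stayed within 1.5 times, 17 moved further and 1 changed direction. That was the density of peaks in the windows over the rest of their chromosomes, GSK2879552 list, which passed from below to above 1. At a −log10 q of 10 or more, the overlapped share was 91.1% for GSK2879552 and 79.4% for vehicle, and that density ratio was 1.04 for GSK2879552 (0.914 to 1.18; 0.754 over all peaks) and 0.653 for vehicle (0.571). At a fold of 5 or more the GSK2879552 share was 81.2%. On contigs alone the shares were 81.6% for GSK2879552 and 70.2% for vehicle, the median log2 ratio was -0.11 and the median background 6.65 for GSK2879552 and 7.21 for vehicle. In the windows alone the background was 4.15 for GSK2879552 and 3.85 for vehicle. Below a background of 25 the vehicle share was 71.5% and the log2 ratio -0.10. The GSK2879552 share was 80.9% when 50% of both peaks had to overlap. With summits within 100 bp the shares were 75.1% for GSK2879552 and 67.3% for vehicle. Runs of 2 distances held 51 vehicle peaks of the chromosome 9 window in place of 18, and 104 of 610 on the rest of that chromosome in place of 0. Distances matched within 5% gave 23 of the window and 8 of 610 on the rest. The cause was not tested.

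No paired analysis was possible because there was a single peak list for each group, and for the same reason no lane was left out. The settings on sequence features were not run, since no genome of this build was used. With 1 library per group, culture, precipitation and sequencing cannot be told apart from treatment.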
